A study of Mus musculus with 4 samples.

Results

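Unwounded skin of mice that lack the leukotriene receptor BLT2 was compared with unwounded wild-type skin, gene by gene, on the array titled BLT2KO and the array titled WT. A gene was taken up where the detection p-value deposited beside its intensity was under 0.01 on at least 1 of the 2 arrays. This held for 10235 of the 19057 genes named on the array, of which 9419 were detected on both arrays, 380 on WT alone and 436 on BLT2KO alone. The WT group is labelled as wild-type control and the BLT2KO group as deficient in the receptor, both on the C57Black6/J background, with no other allele, agent or wound named. Each group was a single array of the Illumina MouseWG-6 BeadChip type, hybridised with total RNA mixed from 3 mice, taken as full skin in 5 mm punch biopsies. The sources used here give neither the age, sex or hair cycle stage of the mice nor the kind of targeted allele. With 1 pool per genotype, the genotype cannot be told apart from any other difference between the 2 pools, no ratio has a replicate check, and none was tested. The series holds 2 further arrays, WT_punched and BLT2KO_punched, of skin sampled 2 days after punching. They share no array with the unwounded pair and appear below only to set the same genes side by side. The labels do not say whether the same mice gave both kinds of biopsy.

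BLT2 is a G protein-coupled receptor for leukotriene B4 and for the cyclooxygenase product 12-HHT, and it is known from keratinocytes. Its relative BLT1 binds leukotriene B4 with higher affinity and guides neutrophils and other leukocytes. Skin also holds hair follicles, which cycle through growth, regression and rest. In the growth phase, matrix cells of the follicle bulb build the hair shaft from hair keratins embedded in keratin-associated proteins, and the surrounding inner root sheath from keratins of its own.

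Detection was alike on the arrays, with 16383 of 45281 probes on WT and 16551 on BLT2KO. The skin label was borne out by the epidermal keratins, with a log2 intensity of 13.43 on WT and 13.37 on BLT2KO for the basal keratin Krt5 and of 14.49 and 14.59 for the suprabasal keratin Krt10. Genes of liver, brain, lung, kidney, intestine and heart were detected on neither array (0 of 8), as were B and plasma cell genes (0 of 6). At the detection limit, Bend3 and Ccdc97 were just inside with a detection p-value of 0.00962, and Adamtsl3 and Btbd10 just outside with 0.01068.

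No probe was named for Ltb4r2, which encodes BLT2, so the deletion itself was not checked on these arrays. Ltb4r1, which encodes BLT1 and is its neighbour on chromosome 14, had the lowest ratio of the 10235 genes. Its log2 intensity was 10.24 on WT and 6.42 on BLT2KO, a 14.2-fold lower level, and 10.63 on WT_punched and 8.04 on BLT2KO_punched. Both BLT2KO arrays thus lay below both WT arrays for the BLT1 gene. Where the Ltb4r1 probe lies relative to the deleted part of the locus is not given, so it does not check the label.

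Most genes had nearly the same level in the 2 pools: the median log2 ratio, BLT2KO minus WT, was -0.01, and 66.4% of genes differed by less than 1.2-fold. In BLT2KO skin 111 genes, 1.08% of those measured, were at least 2-fold higher, and 120 genes, 1.17%, were lower by 2-fold or more. The only error that can be given is technical. From the differences between the 2 brightest probes of a gene, the SD of a single probe's log2 ratio was 0.21, a factor of 1.16. This rests on 3072 pairs of probes detected on both arrays, so it leaves out probes detected on only 1. Of the 29 higher genes with another detected probe, all 29 had it above 0, and of the 36 such lower genes, 34 had it below 0, the exceptions being Esd and Rarres2. All other probes of the gene were past 2-fold for 22 of the 29 and 20 of the 36. Some lay near 0, such as -0.01 for Aldh3b1, -0.26 for Mrgpra2b and 0.31 for Rnase4. At the 2-fold limit lay Krtap5-4 (log2 ratio at least 1.00) and Aldh3b1 (-1.01). Where a gene was detected on only 1 array its ratio is a bound, written "at least", which concerns 25 of the higher and 15 of the lower genes.

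The 2 directions differed in size and in the kind of gene. At least 8-fold differences comprised 32 higher genes, 30 of them on the hair structure lists, and 2 lower genes, Ltb4r1 and Saa3. At least 4-fold, 55 genes were higher and 23 lower. Of the 55, 46 were hair structure genes, while 16 of the 23 were on lists of leukocyte, cytokine and acute-phase genes. Higher genes were dim in WT skin, with a median log2 intensity of 6.12 on WT and 9.66 on BLT2KO. The lower genes had medians of 8.29 and 6.78. As a share of the genes past 2-fold, higher genes made up 48.1%, against 61.5% with median scaling in place of quantile normalization, a setting that moved the median of all genes to 0.12. The count of lower genes was 59 without background correction, and the count of higher genes 77.

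**Figure D1:**
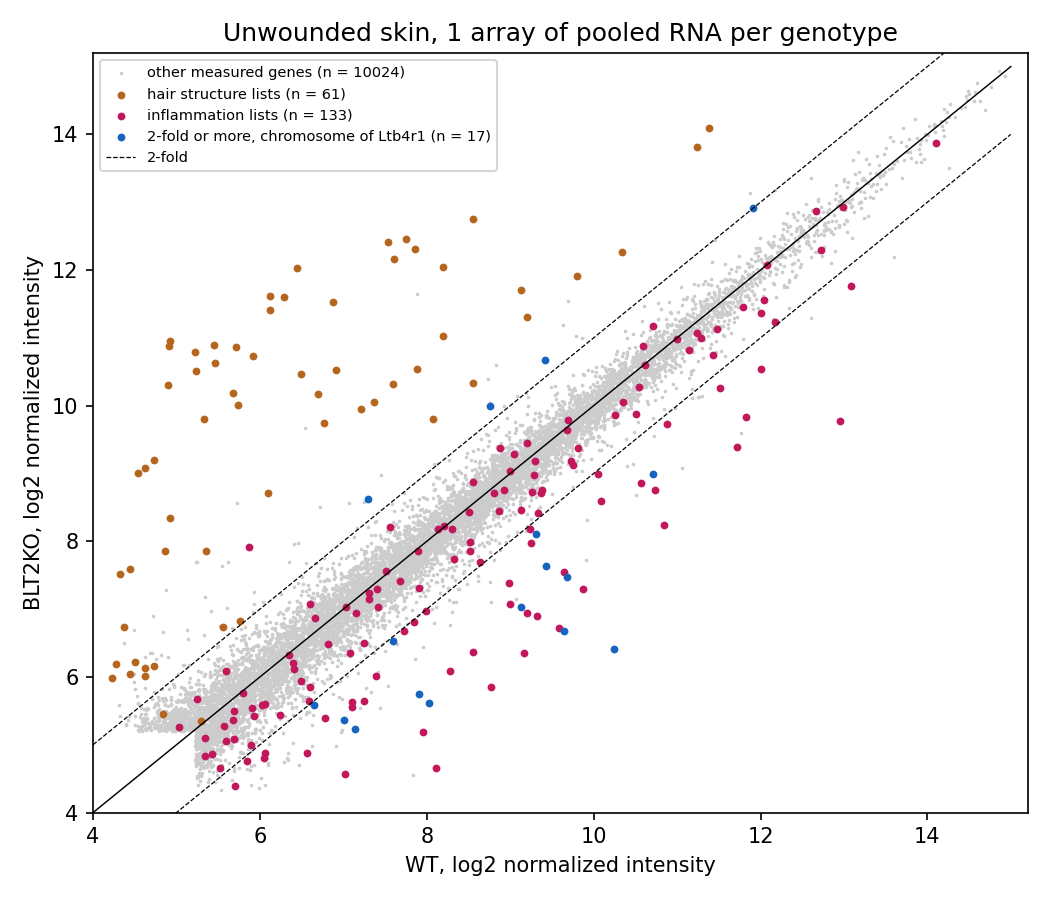
Log2 normalized intensity of each of the 10235 measured genes on the WT array (horizontal axis) and the BLT2KO array (vertical axis), 1 point per gene and 1 array per genotype, with the solid line at equality and dashed lines at 2-fold. Hair structure genes form a cloud far above the upper line, at WT levels mostly under 9, while most of the inflammation genes lie between the dashed lines, below equality, and the rest mostly under the lower line (Acod1 and Ang, on chromosome 14, are in blue).

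Genes of the growing hair were higher in BLT2KO skin. The 4 hair structure lists hold 61 measured genes of 73 named on the array, and 53 of the 61 were higher by 2-fold or more, 0 lower and 8 between, against 1.08% higher among all measured genes. The lists were chosen with earlier results of these data known, so this contrast is a description and no independent check. The median log2 ratio was 2.99 beside -0.01 over all genes. Of the 61, 19 were detected on BLT2KO alone and entered through that array, so the sign of their ratio was nearly fixed. Of the 42 detected on both arrays, 42 were above 0 and 41 higher by 2-fold or more, with a median of 3.73. In whole skin, more cells of a type and more RNA per cell cannot be told apart, nor fewer cells and less RNA.

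Keratin-associated proteins, which crosslink the keratin filaments of the hair shaft, had 36 measured members of 42 named on the array. Of the 36, 30 were at least 2-fold higher, and the list median was 4.37, with a range from 0.06 for Krtap19-5 to at least 5.72 for Krtap6-5. Krtap6-2, of the glycine- and tyrosine-rich kind, had a log2 intensity of 6.45 on WT and 12.03 on BLT2KO, a 47.7-fold difference, with a second probe at 5.65 on the log2 scale. For the high-sulfur type gene Krtap1-5 the 2 levels were 5.23 and 10.80, a 47.6-fold difference. Krtap3-1, another gene of that type, stood at 7.75 on WT and 12.45 on BLT2KO (26.0-fold). Krtap4-1, an ultra-high-sulfur type gene, was not detected on WT and stood at 10.87 on BLT2KO, at least 50.1-fold higher with the background correction used. The 19 members detected on both arrays had a median of 4.88, and the 17 detected on BLT2KO alone had bounds from 0.76 to 5.72 with a median of 2.37. The size of these ratios depends on the background correction: over the settings tried, the smallest log2 value was 4.29 for Krtap4-1 (5.65 as reported), 4.22 for Krtap1-5 (5.57) and 4.83 for Krtap6-2 (5.58). The smallest ratios came from dim probes, such as Krtap24-1 (5.99 on BLT2KO, at least 1.70-fold) and Krtap16-3 (6.20, at least 1.96-fold), both undetected on WT. Krtap genes are near-identical within families, so a probe may also read its paralogs and the split among members is uncertain.

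Hair shaft keratins, the filaments that these proteins crosslink, showed 8 of 8 measured members at least 2-fold higher, with a median of 3.91. Krt39 and Krt40, also on this list, were detected on neither array. The type I hair keratins Krt33a and Krt34 read 7.61 and 8.55 on WT and 12.16 and 12.76 on BLT2KO, which is 23.4-fold and 18.4-fold. Krt86, a type II hair keratin, stood at 7.86 and 12.32, a 21.9-fold difference, with a second probe at 4.42 on the log2 scale. Krt31 (6.49 and 10.46) and Krt33b (8.20 and 12.04) followed at 15.7-fold and 14.4-fold. The lowest of the 8 was Krt35, a keratin of the early matrix and cuticle, at 8.07 and 9.81 (3.33-fold). The cuticle keratin Krt82 was 5.64-fold higher, though its other probes gave 1.25 and 2.70 on the log2 scale. Krt84, known from tongue papillae as well, read 6.10 and 8.71 (6.10-fold).

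The inner root sheath and companion layer list gave 7 of 7 measured genes at least 2-fold higher, at a smaller size, with a median of 2.57. Krt25, also on this list, was detected on neither array. Krt71 read 11.24 on WT and 13.81 on BLT2KO, and Krt27 11.39 and 14.09, which is 5.92-fold and 6.54-fold. Krt72, of the inner root sheath cuticle, stood at 7.21 and 9.95 (6.71-fold). Krt75, the keratin of the companion layer outside the inner root sheath, was at 5.77 and 6.83, the smallest ratio of the 7 at 2.08-fold.

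Other genes of the shaft and its matrix gave 8 of 10 measured members past 2-fold, with a median of 2.34. They include Crym, a thyroid hormone-binding protein (6.76 on WT and 9.75 on BLT2KO, 7.92-fold), and S100a3, a calcium-binding protein of the hair cuticle (9.80 and 11.91, 4.31-fold). Vsig8, an immunoglobulin-family protein of hair and nail, read 8.20 and 11.03 (7.11-fold, with a second probe at 1.91 on the log2 scale). Hoxc13, the transcription factor that drives hair keratin genes, was at 5.56 and 6.74, 2.26-fold higher. Padi3, a peptidylarginine deiminase of the inner root sheath and hair medulla, and Hephl1 were detected on BLT2KO alone, at 6.14 and 5.45, with bounds under 2-fold. Dsg4, Msx2 and Foxn1, also on this list, were detected on neither array.

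**Figure D2:**
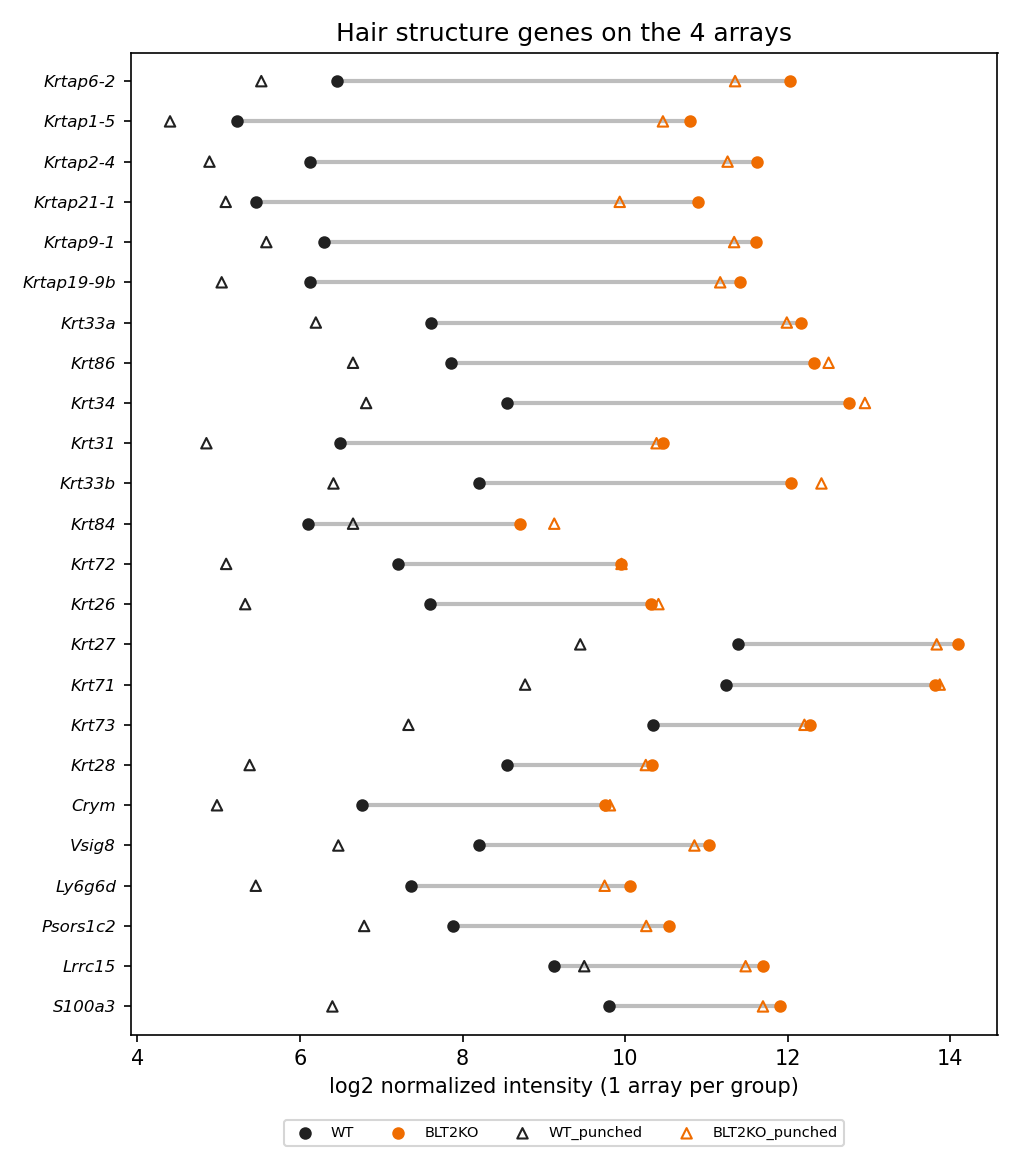
Log2 normalized intensity of 24 hair structure genes on the 4 arrays, up to 6 per list with the largest ratios among genes detected on both unwounded arrays. Filled circles are unwounded and open triangles punched skin, black WT and orange BLT2KO, with a grey bar joining the unwounded pair. Both orange symbols lie to the right of both black symbols in every row, and for most genes the WT_punched triangle is the farthest left.

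Listed regulators of the hair cycle differed far less than the products of the follicle. Of 32 measured regulators, 2 were higher and 1 lower by 2-fold or more, 24 were above 0, and the median was 0.34. Shh, the hedgehog ligand of growing follicles, read 5.33 on WT and 6.62 on BLT2KO (2.44-fold), and the fibroblast growth factor Fgf22 read 6.55 and 7.68 (2.18-fold). The WT level of Shh was close to the lowest detected on that array, 5.23. Over the settings tried, the log2 ratio of Shh was 0.58 at its smallest. Ptch1, the receptor that hedgehog signalling itself induces, stood at 6.21 and 6.93, and the pathway's transcription factor Gli2 at 7.65 and 8.21, neither past 2-fold. Dlx3, a homeobox regulator of shaft and sheath, was just under the limit at 9.19 and 10.18 (1.99-fold). Corin, a protease of the dermal papilla, was detected on BLT2KO alone at 6.17 (at least 1.93-fold). Genes of the resting follicle's stem cells lay well inside 2-fold, with log2 ratios of 0.11 for Lgr5, -0.09 for Nfatc1 and 0.52 for Sox9. Crabp1, a retinoic acid-binding protein, was the lower exception at 8.76 and 7.39, 2.58-fold lower. On these lists, most structural products were thus far above 2-fold and most signals and transcription factors within it. The split depends on how the lists were drawn, since the transcription factor gene Hoxc13 was counted with the structure genes. On no list, and named after their values were seen, the forkhead genes Foxe1 (2.94-fold) and Foxq1 (2.08-fold) and the receptor gene Fzd5 (2.08-fold) were also higher. Other unlisted regulators were not counted. Of 44 regulators named on the array only the 32 were measured, and Wnt10b, Lef1, Gli1, Edar and Hgf were among those detected on neither array.

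Pigment cells of the hair bulb and dividing matrix cells also belong to a growing follicle, and their genes gave different pictures. Of 10 measured melanocyte genes, 9 were above 0 and 3 of them 2-fold or more higher, with a median of 0.26. These 3 encode pigment synthesis and melanosome proteins: Tyrp1 (6.41 and 7.96), Pmel (7.45 and 8.98) and Dct (9.41 and 10.68). Other probes gave log2 ratios of 0.85 and 0.77 for Tyrp1, under 2-fold, 2.06 for Pmel and 1.33 for Dct. The lineage regulators did not pass 2-fold, at log2 ratios of 0.17 for Sox10, 0.33 for Kit and a bound of 0.03 for Mitf. Of 24 measured cell cycle genes, 0 passed 2-fold, 20 were below 0 and the median was -0.27. Top2a, a topoisomerase of dividing cells, stood at 8.59 on WT and 8.30 on BLT2KO, and the mitotic kinase gene Cdk1 at 7.95 and 7.80. Proliferation genes therefore did not lie with the hair products on these arrays.

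Of the 55 genes at least 4-fold higher, 8 belonged to neither the hair nor the inflammation lists. These 8 are named here after their values were seen. Tchhl1, a relative of the inner root sheath protein trichohyalin, read 7.89 on WT and 11.64 on BLT2KO (13.5-fold). Padi1, another peptidylarginine deiminase of keratinising epithelia, read 6.53 and 9.66 (8.75-fold). Calhm4 (7.19-fold), Syndig1l (5.53-fold), the proton channel gene Otop2 (5.46-fold) and the GABA receptor subunit gene Gabrp (4.22-fold) were all dim on WT. Second probes gave smaller log2 ratios, 1.21 for Calhm4 and 1.13 for Gabrp. The platelet glycoprotein gene Gp9 was detected on BLT2KO alone (at least 4.16-fold). Slc4a1, the anion exchanger of red cells, stood at 5.55 and 7.63 (4.24-fold), while the other 3 measured erythroid genes, globins and Alas2, were between 1.30-fold and 1.75-fold higher.

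To show what the promoters of the genes with the largest ratios share, the TATAAA motif was searched on both strands from 250 bases before to 50 bases after the RefSeq gene start. It was present for 35 of 45 hair structure genes at least 2-fold higher that have a promoter in the table (77.8%), and for 22 of 27 keratin-associated protein genes (81.5%). Among the inflammation genes at least 2-fold lower it was present for 13 of 31 (41.9%), among all measured genes for 857 of 8249 (10.4%) and in the whole table for 4234 of 27025 (15.7%). The match describes the letters only, and neighbouring Krtap promoters are copies of each other to a degree. The 80 bases before the start follow for 4 hair genes and 2 inflammation genes, 5′ to 3′ on the coding strand, from RefSeq on GRCm38.p6, with TATAAA in capitals. Krt72 and Saa3 are shown because they lack the motif in this window.
Krtap6-2, chr16:89420112-89420191, minus strand: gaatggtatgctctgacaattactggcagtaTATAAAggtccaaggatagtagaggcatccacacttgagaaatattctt
Krtap2-4, chr11:99614847-99614926, minus strand: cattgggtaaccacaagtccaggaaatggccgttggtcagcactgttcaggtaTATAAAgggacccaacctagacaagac
Krt34, chr11:100041555-100041634, minus strand: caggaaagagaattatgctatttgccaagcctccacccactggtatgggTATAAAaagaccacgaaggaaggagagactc
Krt72, chr15:101786521-101786600, minus strand: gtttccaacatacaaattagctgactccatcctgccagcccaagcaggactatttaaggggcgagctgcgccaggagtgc
Il1b, chr2:129371140-129371219, minus strand: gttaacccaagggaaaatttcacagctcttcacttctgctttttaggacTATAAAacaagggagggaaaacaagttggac
Saa3, chr7:46715677-46715756, minus strand: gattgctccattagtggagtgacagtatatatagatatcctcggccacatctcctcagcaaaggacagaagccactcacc
The motif began 49 bases before the start in Krtap6-2, 27 in Krtap2-4, and 31 in Krt34 and in Il1b. The AP-1 motif TGANTCA was present for 10 of the 45 hair genes (22.2%) and 0 of the 31 inflammation genes, against 7.16% of all measured genes. An NF-kB motif, GGG and TTTCC with 2 bases of any kind between them, was found for 0 of 45, 2 of 31 (6.45%) and 1.95% in the same order. No match says only that these letters are not in this window.

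Inflammation genes were on the whole lower in unwounded BLT2KO skin. Of 135 measured genes on these lists, 39 were lower and 1 higher by 2-fold or more, against 1.17% lower and 1.08% higher over all genes. These lists too were chosen with earlier results of these data known, so the contrast is a description only. Of the 135, 115 were below 0, and the median log2 ratio was -0.49. Members detected on only 1 array entered through it, so the sign of their ratio was nearly fixed, and they are in these values. Among members detected on both arrays, the median was -1.72 for neutrophil (9 genes), -0.54 for monocyte and macrophage (21) and -0.32 for chemokine genes (18). It was -0.60 for other cytokines (9), -0.39 for interferon response (11), -0.27 for stefin A (5) and -0.21 for NF-kB and STAT3 genes (19). The lists differed widely, from a median of -1.45 for neutrophil genes to 0.14 for the interleukin-1 family.

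Neutrophil genes were the lowest list, with 8 of 12 measured members at least 2-fold lower, and 9 of the 9 detected on both arrays below 0. S100a8 and S100a9, the calcium-binding proteins that fill neutrophils and that stressed keratinocytes also make, read 13.08 and 11.82 on WT and 11.77 and 9.84 on BLT2KO, 2.49-fold and 3.96-fold lower. Retnlg, a resistin-like gene of granulocytes, stood at 9.17 and 6.35, 7.05-fold lower. The C-type lectin gene Clec4d read 9.65 and 7.55, and Fpr2, a receptor for formyl peptides, 8.99 and 7.08, which is 4.28-fold and 3.78-fold lower. Csf3r, the receptor for granulocyte colony-stimulating factor, read 7.10 and 5.55 (2.92-fold lower, with a second probe at -0.94 on the log2 scale). Among the members under 2-fold were the chemokine receptor Cxcr2 (6.24 and 5.44) and the decoy receptor Il1r2 (9.81 and 9.37). Genes of neutrophil granules made in the marrow, Mpo, Elane, Ltf, Camp and Ngp, were detected on neither array. The list median without the 3 members detected on WT alone was -1.72.

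Of 24 measured monocyte and macrophage genes, 6 were at least 2-fold lower and 23 were below 0, with a median of -0.58. Of the 24, 21 were detected on both arrays. The activation gene Acod1, whose enzyme makes itaconate, read 8.03 on WT and 5.61 on BLT2KO (5.34-fold lower), and Cd14, the endotoxin co-receptor, 10.73 and 8.76 (3.93-fold lower). Chil3, a chitinase-like protein, was at 8.11 on WT and undetected on BLT2KO (at least 7.52-fold lower, with other probes at -1.06 and -2.36 on the log2 scale). The Fc receptor gene Fcgr4 (9.25 and 7.97) and the adaptor gene Tyrobp (9.23 and 8.18) were 2.43-fold and 2.08-fold lower. Genes also expressed by resident macrophages, named after their values were seen, ran from -0.63 for the complement genes C1qa and C1qb to -0.42 for Adgre1, -0.32 for the mannose receptor Mrc1, -0.09 for the growth factor receptor Csf1r and -0.05 for Cd163. Retnla was the single member above 0, at 0.25.

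Of 21 measured chemokine genes, 6 were at least 2-fold lower and 0 higher, with a median of -0.33. The neutrophil attractants Cxcl1 and Cxcl2 read 9.20 and 9.88 on WT and 6.95 and 7.30 on BLT2KO, 4.76-fold and 5.97-fold lower, with a second Cxcl2 probe at -2.75 on the log2 scale. Ccl3 and Ccl4, which attract monocytes and lymphocytes, read 9.32 and 11.72 on WT and 6.89 and 9.39 on BLT2KO, 5.38-fold and 5.05-fold lower. Ccl7 (8.99 and 7.39) and Ccl12 (7.99 and 6.97), monocyte attractants, were 3.03-fold and 2.02-fold lower. Constitutive chemokines had nearly equal levels, with log2 ratios of -0.01 for the keratinocyte product Ccl27a, -0.17 for the lymphatic product Ccl21a and 0.09 for Cxcl14.

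Cytokine genes were lower in part. In the interleukin-1 family, 2 of 10 measured genes were at least 2-fold lower and 6 were above 0. Il1b, the secreted cytokine of activated myeloid cells, read 10.84 on WT and 8.24 on BLT2KO (6.06-fold lower), and Il33, an alarmin stored in nuclei, 10.09 and 8.60 (2.82-fold lower). The keratinocyte members differed the other way without reaching 2-fold, at 6.60 and 7.07 for Il1a, 8.87 and 9.37 for Il18, and 7.56 and 8.21 for Il1f8, now called Il36b. Among 11 other cytokine genes, 4 were at least 2-fold lower and all 11 were below 0, 9 of them detected on both arrays. Il24 read 8.77 and 5.86 (7.53-fold lower) and its relative Il19 was at 7.02 on WT and undetected on BLT2KO (at least 3.54-fold lower). Osm, a cytokine of the interleukin-6 family, read 8.28 and 6.09, and Tnf 7.25 and 5.65, 4.59-fold and 3.02-fold lower. Of 20 genes downstream of NF-kB and STAT3 or sensing microbes, 2 were at least 2-fold lower, Tlr6 (2.60-fold) and the feedback inhibitor Socs3 (2.08-fold), while the transcription factor genes Cebpb (12.99 and 12.94) and Stat3 (10.62 and 10.60) had nearly equal levels.

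The acute-phase and antimicrobial list held differences in both directions, with 7 of 18 measured genes lower and 1 higher by 2-fold or more. Saa3, a serum amyloid A made locally by macrophages and epithelium, read 12.95 on WT and 9.78 on BLT2KO, 9.04-fold lower. Saa1 (7.10 and 5.63), the protease inhibitor gene Slpi (12.01 and 10.55) and the beta-defensin genes Defb4 (6.78 and 5.39) and Defb14 (10.88 and 9.73) were between 2.21-fold and 2.77-fold lower. Defb8 was 4.53-fold lower (8.55 and 6.37), whereas Defb6 (12.67 and 12.87) and Defb1 (5.79 and 5.76) had nearly equal levels. The exception was S100a7a, an epithelial S100 protein, at 5.87 and 7.91, 4.11-fold higher. On the stefin A cluster list, genes for intracellular inhibitors of cysteine proteases, 2 of 6 measured were at least 2-fold lower: Cstdc4 (9.58 and 6.72, 7.23-fold) and Stfa2 (11.51 and 10.27, 2.37-fold). Csta3 and Csta2, on the same chromosome 16 but on no list, were lower too and are named after their values were seen. Csta3 read 10.51 and 8.68 (3.55-fold), and Csta2 was at 6.91 on WT and undetected on BLT2KO (at least 3.27-fold). Genes of this cluster are close copies of each other, so the split among them is uncertain. Of 14 measured interferon response genes, 2 were at least 2-fold lower, Isg15 and Oasl2, and 13 were below 0, with a median of -0.39. Of these 14, 11 were detected on both arrays.

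**Figure D3:**
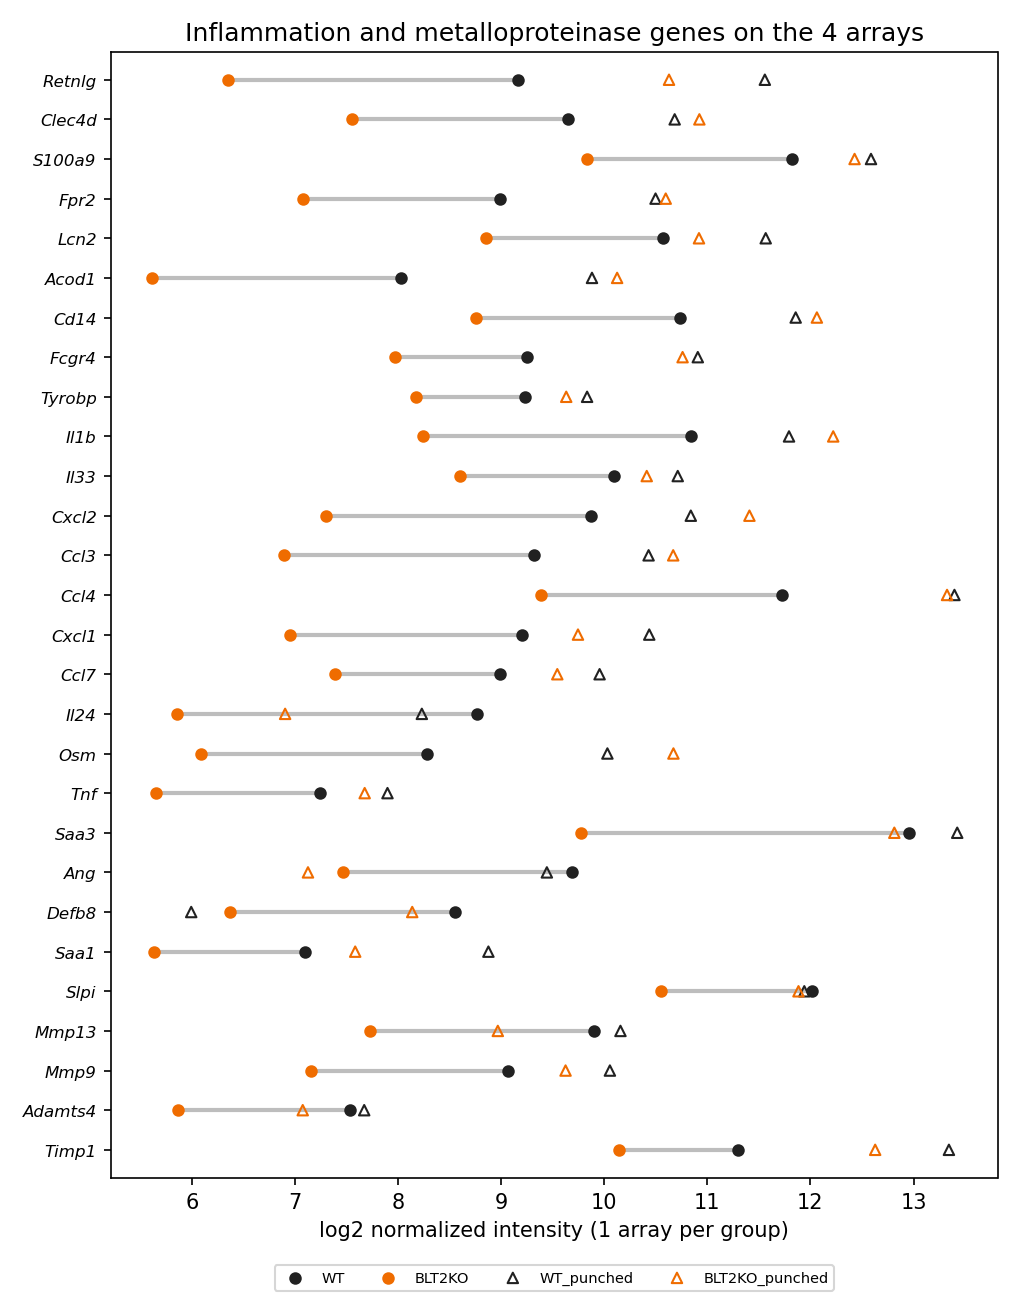
Log2 normalized intensity of 28 inflammation and metalloproteinase genes at least 2-fold lower in unwounded BLT2KO skin, up to 5 per list, on the 4 arrays, with filled circles for unwounded and open triangles for punched skin, black for WT and orange for BLT2KO. The unwounded BLT2KO circle is the lowest of the 4 values in most rows, and the 2 punched triangles usually lie close together, with Ang, Defb8, Il24, Saa1 and Mmp13 among those that do not.

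Genes of the wound-edge keratinocyte and of matrix breakdown lay on the lower side as well, although the skin was unwounded. Of 20 measured wound-edge genes, 4 were at least 2-fold lower, 19 were below 0 and the median was -0.60. The keratins of activated epidermis read 8.30 on WT and 6.96 on BLT2KO for Krt6a (2.53-fold lower) and 13.60 and 12.20 for Krt6b (2.64-fold lower). Krt16, at 14.26 and 13.51, was 1.69-fold lower and did not pass 2-fold. Krt17, which the hair follicle also expresses, was nearly equal at 14.41 and 14.38. Tnc, the matrix protein tenascin C, read 11.06 and 9.08, 3.94-fold lower, with other probes from -0.68 to -2.26 on the log2 scale. Of 15 measured metalloproteinases and inhibitors, 5 were at least 2-fold lower. The collagenase Mmp13 (9.91 and 7.73), the gelatinase Mmp9 (9.07 and 7.15) and the aggrecanase Adamts4 (7.54 and 5.87) were 4.52-fold, 3.77-fold and 3.19-fold lower. Timp1, the inducible inhibitor, went with them (11.30 and 10.15, 2.22-fold lower), while the constitutive Mmp2 (13.42 and 13.40) and Timp2 (12.28 and 12.46) did not.

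In the pathway that makes and senses eicosanoids, the lipid family to which both BLT2 ligands belong, 23 genes were measured, 2 were lower and 1 higher by 2-fold or more, with a median of 0.11. Besides Ltb4r1, the lower gene was Alox5ap, which encodes the membrane partner of 5-lipoxygenase in leukotriene synthesis (11.18 on WT and 10.11 on BLT2KO, 2.10-fold lower). Alox5, the 5-lipoxygenase gene itself, read 7.45 and 6.84 and did not pass 2-fold. The lipoxygenases of epidermis lay above 0, at 7.15 and 7.83 for Alox12, 9.77 and 10.26 for Alox12b, 9.21 and 9.88 for Alox12e, and 6.30 on BLT2KO alone for Alox8 (at least 2.11-fold). Ptgs2, Lta4h and Ptger4 were detected on neither array. Tbxas1, which encodes thromboxane synthase, the enzyme that also yields 12-HHT, was nearly equal at 6.10 and 6.37.

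Epidermal and structural genes of the skin differed little. Of 35 measured genes of epidermal differentiation, 2 were higher and 0 lower by 2-fold or more, 32 were above 0, and the median was 0.27. The 2 were Krt1 (12.17 and 13.18, 2.02-fold) and Krt2 (undetected on WT and 6.67 on BLT2KO, at least 2.72-fold), both suprabasal keratins, and Casp14, the caspase of cornification, followed at 11.45 and 12.45 (1.99-fold). Loricrin (Lor) was at 14.47 and 14.50, near the top of the array's range. None of the measured basal keratinocyte (12), tight junction (11), dermal fibroblast and matrix (19), adipocyte (16), sebaceous gland (9), fast skeletal muscle (17), endothelial (12), T and NK cell (8), or Langerhans cell and MHC class II (8) genes passed 2-fold. Their medians ran from -0.44 for endothelial genes, 11 of which were below 0, to 0.24 for T and NK cell genes. The 6 T and NK cell genes detected on both arrays had a median of 0.08. The collagen genes Col1a1 (13.16 and 13.74) and Col1a2 (10.58 and 11.25) were 1.49-fold and 1.59-fold higher. Hdc, the histamine-making enzyme, was the single mast cell list member past 2-fold, at 11.76 and 9.60 (4.48-fold lower), while the mast cell proteases Cpa3 (9.61 and 9.37) and Mcpt4 (9.85 and 9.58) were nearly equal. Myh8, a myosin of developing muscle, was the other way at 9.64 and 11.19 (2.93-fold higher, with other probes at 1.21 and 1.50 on the log2 scale), while Acta1 of mature muscle read 14.45 and 14.41. Gsta4, a glutathione transferase for lipid aldehydes, was 3.04-fold lower (9.92 and 8.31). Of the immediate early (14), clock (12), complement (11), glycolysis (15) and Schwann cell (5) genes measured, 0 passed 2-fold.

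**Figure D4:**
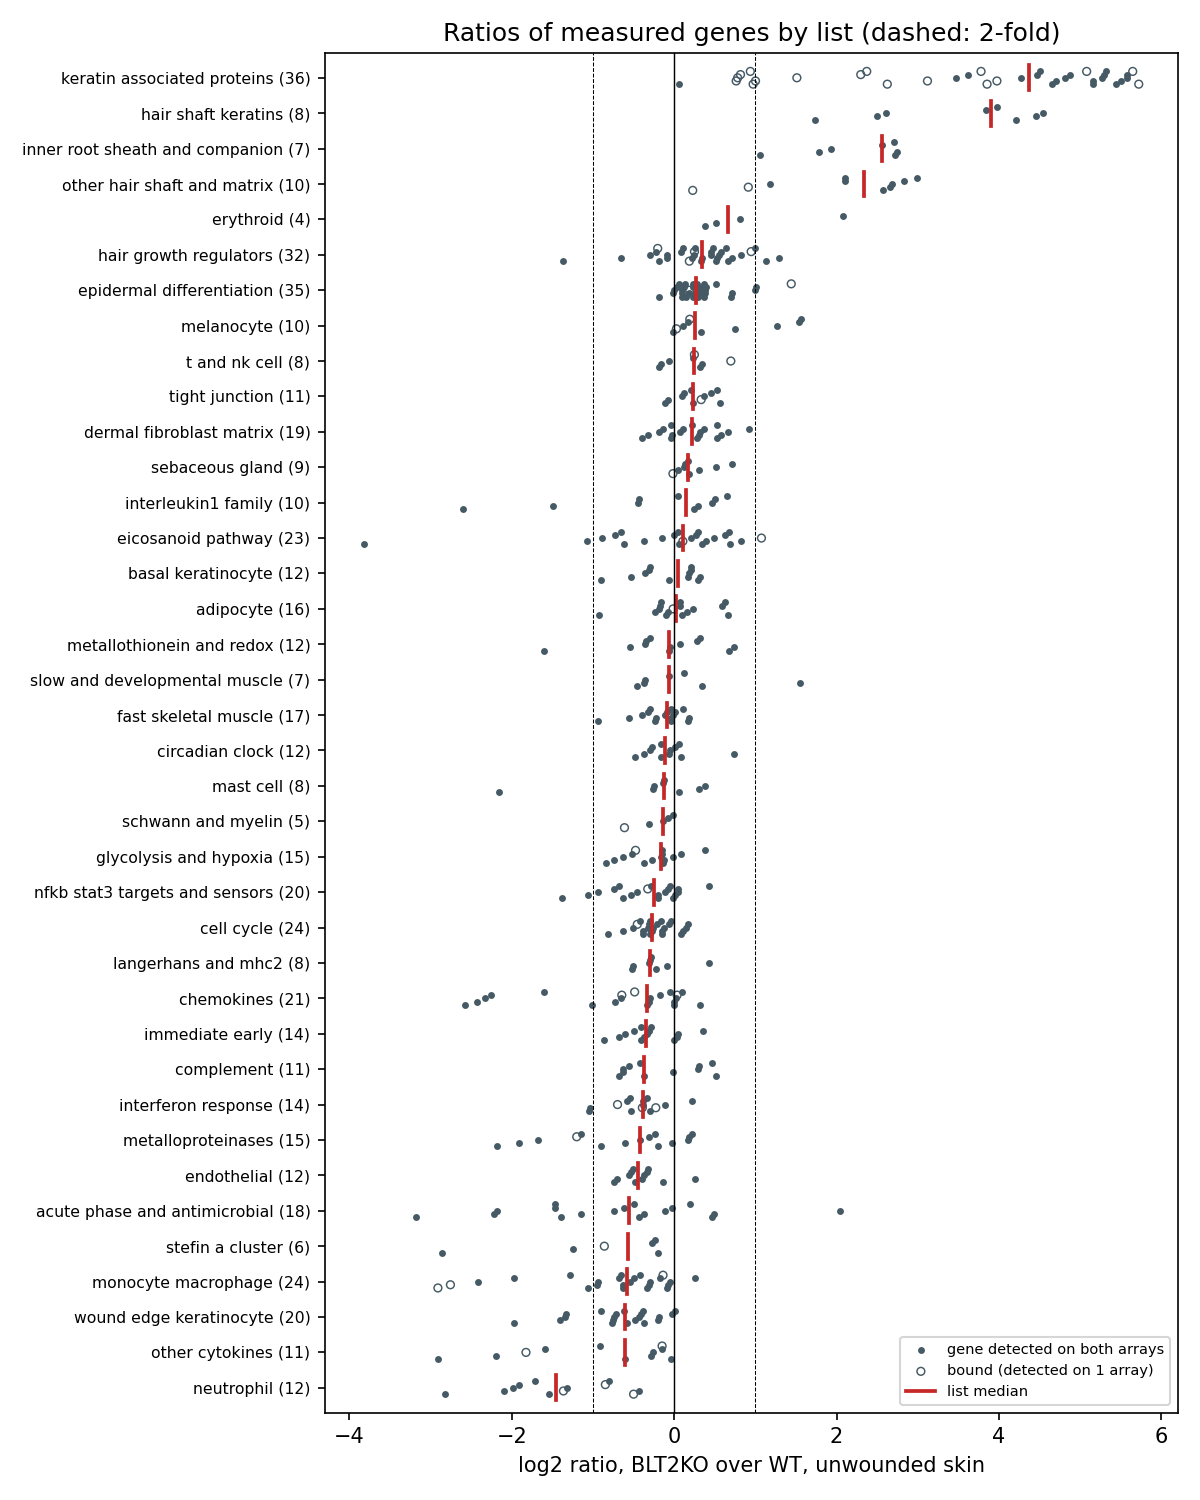
Log2 ratio of BLT2KO over WT in unwounded skin for every measured gene of each list with at least 4 measured genes (number in brackets), 1 point per gene, open where the ratio is a bound, with a red bar at the list median and dashed lines at 2-fold. The 4 hair structure lists stand to the right of 2-fold with medians from 2.34 to 4.37, the neutrophil list stands farthest left at -1.45, and the other lists have medians between -0.60 and 0.66.

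Of the 120 lower genes, 67 were on no list. Among these, Ptx3, a pattern-recognition pentraxin, had the largest bound: it read 7.83 on WT, was undetected on BLT2KO and was at least 6.22-fold lower, with a second probe at -2.85 on the log2 scale. The 23 genes at least 4-fold lower comprised the 16 inflammation genes, Mmp13, Hdc, Ptx3 and 4 more that lie on chromosome 14. Named after their values were seen, further leukocyte genes stood among the unlisted ones at smaller sizes: the actin-binding Coro1a (10.73 and 9.56, 2.25-fold), the oxidase subunits Cyba (10.98 and 9.96, 2.02-fold) and Ncf4 (8.35 and 7.10, 2.38-fold), and the receptor Trem2 (8.26 and 7.13, 2.19-fold). Nrg1, a growth factor that binds ErbB receptors, read 6.99 and 5.22 (3.40-fold lower).

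Chromosome 14, which carries Ltb4r1 and Ltb4r2, held 13 of the 120 lower genes among 340 measured there, 3.82% against 1.17% over all chromosomes. Besides Ltb4r1, Acod1 and Ang, they were Supt16, Esd, Mipep, Cdhr1, Psmb5, Ndrg2, Samd4, Sncg, Mzt1 and Diaph3. Supt16, a histone chaperone subunit, read 9.64 on WT, 6.67 on BLT2KO, 9.50 on WT_punched and 6.40 on BLT2KO_punched. Mipep, a mitochondrial peptidase, read 9.13, 7.03, 8.78 and 6.54 in the same order, and Psmb5, a catalytic subunit of the proteasome, 9.43, 7.64, 9.18 and 7.56. Both BLT2KO arrays thus lay below both WT arrays by similar amounts for these 3 genes of general cell functions. Their probes did not always speak for the whole gene, since other probes gave log2 ratios of -0.32 for Supt16, -0.32 for Ndrg2 and 0.48 for Esd, against -2.97, -1.71 and -2.17 for the probes used. Ang, the ribonuclease angiogenin, read 9.68, 7.47, 9.44 and 7.13, whereas Rnase4, the ribonuclease gene that shares its locus, was higher in BLT2KO skin at 11.91, 12.92, 11.07 and 12.31 (2.01-fold unwounded, second probe at 0.31). The other higher genes of chromosome 14 were Dct, Atp12a and Slc7a8. Higher genes were most frequent on chromosomes 16 (17 of 342, 4.97%) and 11 (28 of 904, 3.10%), where 13 and 21 of them were hair keratin or keratin-associated protein genes.

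Set beside punched skin, the higher and lower genes of unwounded skin differed in how often they recurred past 2-fold. BLT2KO_punched against WT_punched gave 114 genes (1.08% of 10540) higher and 57 (0.541%) lower by 2-fold or more. Of the 111 genes higher in unwounded BLT2KO skin, 85 were at least 2-fold higher in the punched pair too, among them 50 of the 53 hair structure genes and 35 of the other 58. Many of these punched ratios are bounds, since the gene was undetected on WT_punched. Ces1f, a carboxylesterase, was the single gene of the 111 that was at least 2-fold lower there, with levels of 5.93 on WT, 7.25 on BLT2KO, 7.60 on WT_punched and 5.35 on BLT2KO_punched. Of the 120 lower genes, 17 were lower by 2-fold or more in the punched pair too, and 1, Defb8, was at least 2-fold higher. These 17 were 10 of the 13 on chromosome 14 and 7 of the 107 elsewhere. By sign alone, 104 of the 111 higher genes were above 0 in the punched pair, and 95 of the 120 lower genes were below 0. The lower genes started nearer to the 2-fold limit, with an unwounded median log2 ratio of -1.35 beside 1.93 for the higher genes. In the punched pair these medians were -0.30 and 2.21.

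By gene group, the hair structure median was 2.99 in unwounded and 4.60 in punched skin. Where a gene was undetected on WT_punched, as Krtap1-5, Krt31 and Crym were, its punched ratio is a bound. This limits the shift that the list medians can show. Of the 4 hair structure lists, the inner root sheath and companion list had the largest shift of its median, from 2.57 to 4.87. Krt71 read 11.24 on WT, 8.77 on WT_punched, 13.81 on BLT2KO and 13.87 on BLT2KO_punched. Krt75 of the same list did not shift, with log2 ratios of 1.06 and 0.99. Lower levels on WT_punched than on WT were not particular to this list, as for Krt34 (8.55 on WT and 6.81 on WT_punched) and S100a3 (9.80 and 6.40), though not for Krt84 (6.10 and 6.65). The 39 inflammation genes that were lower had a median of -0.14 in the punched pair, and 4 of them were at least 2-fold lower there: Chil4, Il24, Ang and Saa1. The neutrophil median was -1.45 unwounded and -0.12 punched, with 0 of 14 measured genes past 2-fold in the punched pair. S100a9 read 11.82 on WT, 9.84 on BLT2KO, 12.59 on WT_punched and 12.43 on BLT2KO_punched, and Cxcl2 read 9.88, 7.30, 10.84 and 11.41 in that order. The unwounded BLT2KO array was the lowest of the 4 for both. Krt1, higher in unwounded BLT2KO skin, read 12.40 on WT_punched and 12.37 on BLT2KO_punched. Krt2 was undetected on WT_punched and at 5.18 on BLT2KO_punched, close to the lowest detected level, so the punched pair gives no ratio for it. The difference between the unwounded and the punched pair was not tested for any gene, as each of the 4 groups is 1 array.

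**Figure D5:**
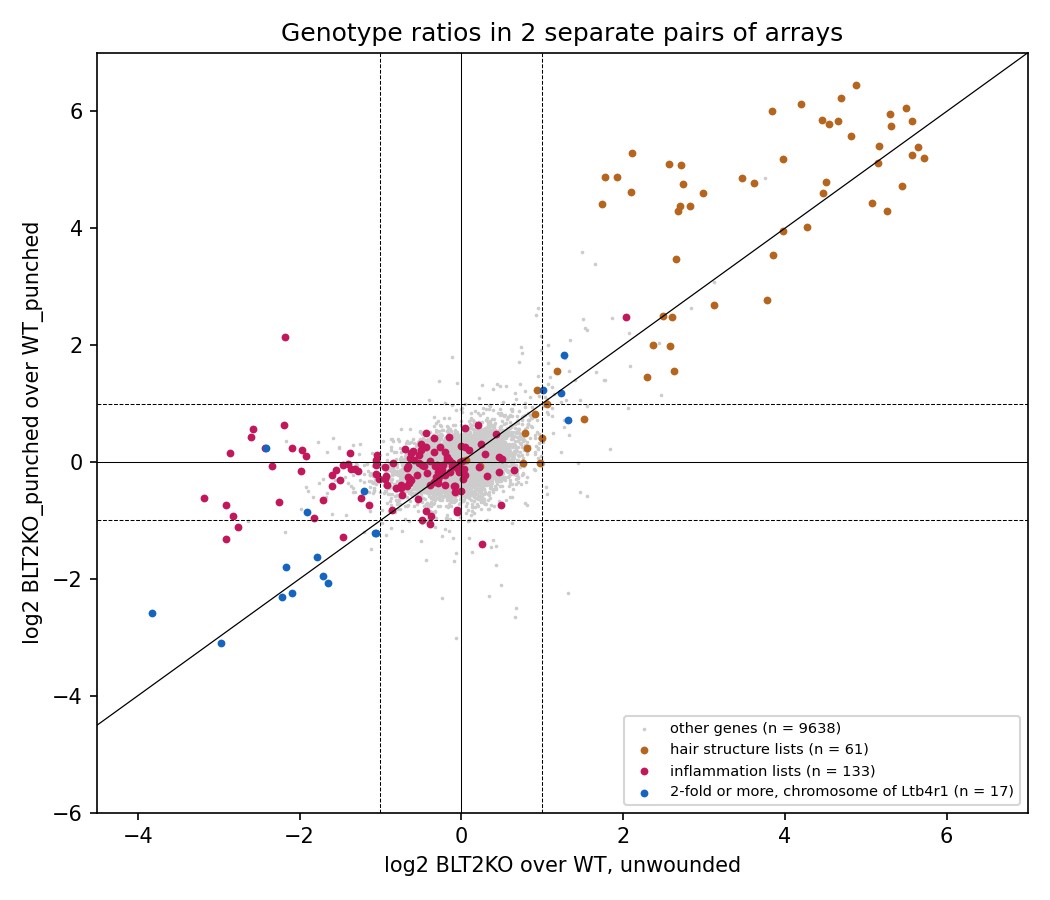
Log2 ratio of BLT2KO over WT in unwounded skin (horizontal axis) against the log2 ratio of BLT2KO_punched over WT_punched (vertical axis), 1 point per gene measured in both pairs, which share no array. The solid diagonal marks equal ratios and dashed lines mark 2-fold. Hair structure genes lie in the upper right in both pairs, most of the genes of chromosome 14 (blue) lie near the diagonal, and inflammation genes spread along the horizontal axis near a punched ratio of 0.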

How the data were processed

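Total RNA of 3 mice per group was mixed, labelled and hybridised to 4 arrays of the Illumina MouseWG-6 BeadChip type, 1 per group, per the labels' protocols and series design. The labels give no slide or array position. The authors deposited a non-normalized intensity on a linear scale for 45281 probes per array, exported from BeadStudio, with a detection p-value for each, per the file headers. A second deposited table of processed intensity values equals the first times 1 constant per array and served as an alternative. Files name no genome build. With 1 array per group, precision is limited by the number of arrays, and no test was run.

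Background was removed with limma 3.58.1 (R 4.3.3) by the normexp model from the detection p-values, with an offset of 16, all 4 arrays were quantile-normalized, and log2 taken. The steps were tested on simulated data. Later steps used Python 3.11.15, numpy 2.4.6, pandas 2.3.3 and matplotlib 3.10.9. Gene names came from the platform annotation (34885 probes with 1 gene, 18 with several, 10378 unlisted), and 34807 probes matched RefSeq on GRCm38.p6. The probe brightest on average stood for a gene. A side not detected at 0.01 was raised, where below it, to the lowest detected level of its array. These levels were 5.23 on WT, 5.20 on BLT2KO, 5.20 on WT_punched and 5.10 on BLT2KO_punched. Counts are at 2-fold.

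The members and the 40 gene lists were chosen with earlier results of these data known. Named genes were Ltb4r1 and Ltb4r2, the 12 highest and 12 lowest ratios among genes detected on both arrays, the 4 largest bounds each way, up to 6 members of each list past 2-fold and its first 2 measured members, the 2 genes on each side of the detection limit, and the genes past 2-fold on the chromosome of Ltb4r1. Other list members are named to show the range of their list and were chosen after their values were seen. Classes of keratin-associated proteins by composition were not computed, as no protein table was used here. Alternatives were no background correction, an offset of 50, median scaling, quantile normalization of the unwounded pair alone, the deposited processed values, the mean of detected probes, no detection filter, detection on both arrays, and a detection limit of 0.05.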

Additional observations from a re-analysis of the deposited data

How the results depend on the processing

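Of the results with a main count or median, the 111 higher genes stayed within 1.5 times under all 9 alternatives (77 to 131). The 120 lower genes became 59 without background correction, 77 with an offset of 50 and 68 in the authors' processed values. In those settings, in the same order, the keratin-associated protein median was 3.24, 3.63 and 3.25 (main 4.37) and the neutrophil median -1.09, -1.19 and -1.13 (main -1.45). With detection on both arrays these medians were 4.88 and -1.72. None of the 111 rule-named ratios past 2-fold changed sign, and 23 of them were under 2-fold in at least 1 setting, among them Shh (0.58), Krt2 (0.66), Alox8 (0.42), Rnase4 (0.66), Esd (-0.85), Saa1 (-0.84) and Csf3r (-0.87) at their smallest on the log2 scale. Of 36 other list medians, 9 that lay near 0 changed sign, among them the interleukin-1 family (-0.16 to 0.31), eicosanoid (-0.04 to 0.16) and basal keratinocyte (-0.10 to 0.22) lists. Background correction sets the size of ratios of dim probes. Leaving out a replicate was not possible with 1 array per group. No paired analysis was possible because the groups share only replicate number 1 and each holds 1 pool.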
